A study of Homo sapiens with 6 samples.

Results

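The epidermal growth factor receptor (EGFR) ligands, the ERBB receptors that bind them and the proteases that release them were examined in HCT116, an established cell line from a human colorectal carcinoma, with and without knockdown of the long noncoding RNA GMDS-AS1. The group holds 10 of the 60662 genes with a value: the ligands AREG, EREG, HBEGF, TGFA and BTC, the receptors EGFR, ERBB2 and ERBB3, and the sheddases ADAM17 and ADAM10. They were taken by gene symbol and had been selected on their TPM in this same comparison of shCtrl with GMDS-AS1 KD, so their difference between the groups is given as a description without a test. The study asked which genes and signaling pathways depend on GMDS-AS1 in colorectal cancer cells. One group of 3 libraries came from cells stably transduced by lentivirus with a nontarget control shRNA (shCtrl; genotype WT in the labels), and the other group of 3 came from cells transduced with GMDS-AS1 shRNA2 (GMDS-AS1 KD; genotype GMDS-AS1 knockdown). Both groups were HCT116 cells grown in McCoy's 5a medium with fetal bovine serum and carried a puromycin-selectable shRNA plasmid, and no library of a second GMDS-AS1 shRNA was analysed here. The labels call the libraries biological replicates without saying whether they came from separate transductions, so the errors below rest on the spread between these libraries. Each standard error also draws on a trend of the spread over all genes tested.

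EGFR and its relatives are receptor tyrosine kinases of the cell surface. Their ligands are made as transmembrane precursors, are cut from the surface by metalloproteases, and drive the receptors into dimers whose phosphorylated tails recruit adaptors that feed RAS, the MAP kinases and PI3 kinase. ERBB2 binds no known ligand and acts as a dimer partner, while ERBB3 has little kinase activity of its own and couples strongly to PI3 kinase. In colorectal cancer, AREG and EREG are known for their high RNA levels in tumors that depend on EGFR.

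All 6 epithelial markers examined were expressed in every library, with EPCAM between 141 and 165 TPM (the unit of all levels here, scaled to transcript length and to the library total). Among 5 markers of other cell types, PTPRC of leukocytes was at 0 in every library, CD3E, PECAM1 and COL1A2 did not exceed 0.40 TPM, and the fibroblast collagen gene COL1A1 had 10.0 to 14.4 TPM. The keratins KRT8, KRT18 and KRT19 were lower in GMDS-AS1 KD, with log2 fold changes of -1.46, -1.83 and -0.26 (adjusted p = 1.73e-07, 7.21e-08 and 0.00016, limma). The tight junction gene CLDN4 was higher (0.29, adjusted p = 9.78e-05, limma; 0.05 and 0.162 as deposited), and EPCAM (0.18) and the cadherin CDH1 (0.12) were not past an adjusted p of 0.05. Whether these differences bear on the ERBB genes was not tested. GMDS-AS1 itself, listed as GMDS-DT, had 1.66, 2.21 and 1.34 TPM with shCtrl and 0.88, 0.91 and 0.79 TPM with GMDS-AS1 shRNA2. The groups did not overlap, and the KD mean was 49.5% of the shCtrl mean. Log2(TPM + 1) was lower by a difference of -0.41 (SE 0.14, adjusted p = 0.0407, limma), and with 0.1 in place of 1 the difference was -0.68. With 1 library left out the adjusted p was 0.0289 to 0.117, and it was under 0.05 only where shCtrl library 3 was the one left out.

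Sequences of 3 sets are given: the start regions of AREG and EREG, which were the most abundant ligands, the AU-rich sites in ligand 3' UTRs, and the shRNA strands that only the KD cells carried. AREG lies at chr4:74445134-74455009 and EREG at chr4:74365143-74388751, both on the plus strand of GRCh38 (GENCODE v29), with 56382 bases between them. In the RefSeq promoter windows of GRCh38.p14, which run from 250 bases before to 50 bases after a start, both genes hold the letters TATAAA close before the start, at 29 bases for AREG and 32 bases for EREG. Of 35116 promoters of the same length, 11.53% hold TATAAA on either strand. AREG also holds the cAMP response element TGACGTCA at 65 bases before the start, which 1.848% of promoters hold and no other member does. In the lines that follow, the capitals mark the TATA box or the cAMP response element.
AREG TATA box, chr4:74445097-74445122, plus strand: cggctgagccTATAAAgcggcaggtg
EREG TATA box, chr4:74365103-74365128, plus strand: ggctccctagTATAAAgttcgcagca
AREG cAMP response element, chr4:74445061-74445088, plus strand: ggccgggcctTGACGTCAtgggctgcgg
A promoter window was found for 9 of the 10 members, with 2 windows each for EGFR and TGFA, and ERBB3 was not among them. The GC box GGGCGG, held by 44.954% of promoters, occurs in AREG, HBEGF, TGFA, BTC, EGFR, ADAM17 and ADAM10, with 5 copies in HBEGF and 4 in 1 TGFA window, and not in EREG or ERBB2. The second EGFR window, at an internal start, holds TATAAA at 2 places and the AP-1 site TGAGTCA at 2 places, and 4.949% of promoters hold TGAGTCA. The TEAD site CATTCC, held by 14.033% of promoters, occurs in EREG, ADAM17 and the second EGFR window, and the STAT site TTCNNNGAA, held by 7.657% of promoters, occurs in none of the 11 windows. Each motif was searched on both strands, and a match is a run of letters and not a shown binding site.

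The pentamer ATTTA, read with U for T in the RNA, is the core of AU-rich elements, which RNA-binding proteins such as HuR recognise in 3' UTRs. In the annotated 3' UTR of AREG, which is 269 bases long, ATTTA occurs 4 times, and 38.616% of the 448 tested genes with a 3' UTR of like length (within 10%) hold it at all. EREG has 20 copies in 3943 bases, where 9 is the median of UTRs of like length, TGFA has 13 (median 8), BTC has 12 (median 4), and HBEGF has 5 (median 2). All 5 ligands were above the median for their length. The receptors were not, since EGFR has 9 copies (median 14), ERBB3 has 2 (median 2) and ERBB2 has 0 (median 1). ADAM17 has 7 (median 3) and ADAM10 has 27 (median 20.5), so the sheddases were also above the median for their length. The longer form TATTTAT, which contains the pentamer, occurs in AREG, EREG, HBEGF, TGFA and ADAM10 and in 31.626% of the 12765 tested 3' UTRs. Among UTRs of like length the share was 12.5% for AREG, 64.909% for EREG, 32.673% for HBEGF, 57.803% for TGFA and 86.111% for ADAM10. The nonamer TTATTTATT, which contains both shorter forms, occurs in EREG and TGFA and in 8.226% of all 12765 UTRs. Its share among UTRs of like length was 17.091% for EREG and 14.331% for TGFA. Whether any of these motifs bears on the levels of the members was not tested. The 3 sites below are in 3' UTR exons, with the heptamer or nonamer in capitals.
AREG heptamer, chr4:74454959-74454985, plus strand: aatggaagtgTATTTATtttacagctc
EREG nonamer, chr4:74388669-74388697, plus strand: ttattaatttTTATTTATTtttcttggga
TGFA nonamer, chr2:70450233-70450261, minus strand: agatgatgtcTTATTTATTagatggataa

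An shRNA can also lower RNAs that pair with its seed, bases 2 to 8 of the strand. The strands of shRNA 2 are shown because every KD library carried them, with the seed in capitals.
shRNA 2 antisense strand: tTACCATCtatctgtggtctt
shRNA 2 sense strand: aAGACCACagatagatggtaa
The 7-base match to the antisense seed, GATGGTA, occurs once in the 3' UTRs of HBEGF and ADAM10, and in 6.612% of the tested 3' UTRs. Among UTRs of like length the share was 5.322% for HBEGF and 34.259% for ADAM10. The match to the sense seed, GTGGTCT, occurs once in EGFR and ADAM10, and in 9.604% of the tested 3' UTRs. For this match the share among UTRs of like length was 32.707% for EGFR and 36.111% for ADAM10. The 7 other members, with AREG, EREG and TGFA among them, hold neither match in the 3' UTR. The single sites of HBEGF and EGFR are given with the match in capitals.
HBEGF antisense seed match, chr5:140334087-140334113, minus strand: gagtatgtccGATGGTAtctgggtaag
EGFR sense seed match, chr7:55208453-55208479, plus strand: agcttcagatGTGGTCTttggaaacag
Pairing outside the 3' UTR was not examined, and a part of the shRNA in the members' values was not tested.

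**Figure D1:**
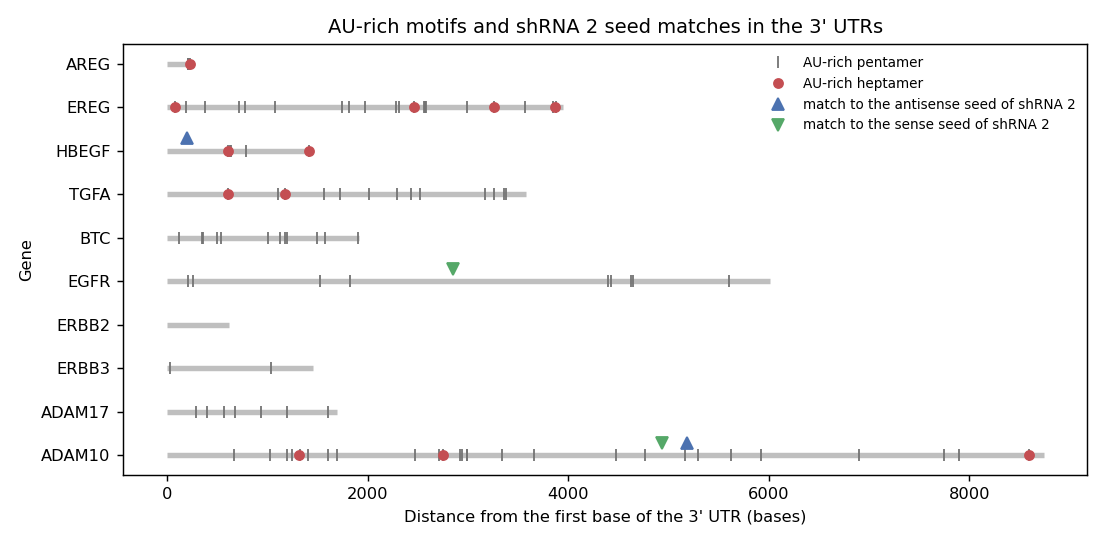
Positions of AU-rich pentamers (ticks), AU-rich heptamers (circles) and 7-base matches to the seeds of shRNA 2 (triangles) along the annotated 3' UTR of each member, in bases from its first base; grey bars give the length of the UTR. The 4 pentamers of AREG start at positions 204 to 230 of its 269 bases, ERBB2 has none, and seed matches occur in HBEGF, EGFR and ADAM10.

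As deposited, every member had a lower level in every GMDS-AS1 KD library than in any shCtrl library. In the deposited TPM, the libraries of the groups did not overlap for 10 of 10 members, and 44.9% of the 16901 genes tested were below in the same manner, while 18.8% were above. After the libraries were scaled to each other by a trimmed mean, 7 members were past an adjusted p of 0.05 in the direction of lower expression, and so were 25.9% of all genes tested, beside 28.5% that were higher. Without that scaling 10 members were past it, beside 40.3% of all genes lower and 16.3% higher. With at least a 2-fold change also required, AREG and TGFA were past it, beside 4.24% of all genes lower and 2.93% higher, and as deposited there were 4 members beside 6.96% lower and 1.33% higher. Since the same comparison chose the members, nothing is read from these counts. The scaling moved the median log2 fold change of all genes from -0.20 as deposited to -0.00, and the changes below are relative to the scaled value unless the deposited one is named. Fold changes were taken on log2(TPM + 1), which understates the change of genes with low TPM. In bulk RNA, fewer cells with a transcript and less of it per cell cannot be told apart.

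**Figure D2:**
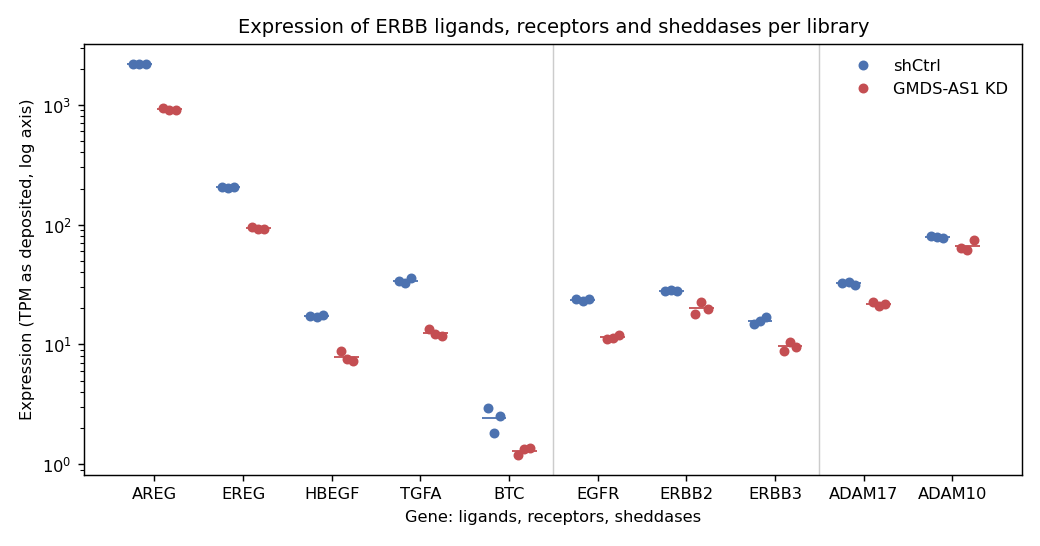
Expression of the 10 members in TPM as deposited (log axis) in each of the 3 shCtrl and 3 GMDS-AS1 KD libraries, with a line at each group mean; ligands, receptors and sheddases are separated by vertical lines. AREG was the most abundant member at 2198 TPM on average in shCtrl and 916 TPM in GMDS-AS1 KD, and for each member the KD points lie below the shCtrl points.

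AREG (amphiregulin, ENSG00000109321), a low-affinity EGFR ligand, carried most of the ligand RNA. Its level was 2208, 2188 and 2196 TPM in shCtrl and 937, 913 and 899 TPM in GMDS-AS1 KD. The KD libraries sat tightly together at 41.7% of the shCtrl mean, far from any shCtrl library, and the standard deviations were 10.4 and 19.3 TPM. The log2 fold change was -1.01 (standard error 0.025), and -1.26 as deposited. Among all genes of a library, AREG ranked 83 to 85 in shCtrl and 151 to 153 in GMDS-AS1 KD, and it made up 0.221% to 0.223% of all TPM in shCtrl and 0.0905% to 0.0944% in GMDS-AS1 KD.

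EREG (epiregulin, ENSG00000124882), which binds EGFR and ERBB4, had 207, 200.4 and 207 TPM in shCtrl and 95.0, 91.2 and 92.6 TPM in GMDS-AS1 KD. Its KD mean was 45.3% of the shCtrl mean, close to the share of its neighbor AREG, and no library crossed between the groups. The log2 fold change was -0.89 (standard error 0.031). AREG over EREG, a ratio within a library that does not depend on scaling, was 10.6, 10.9 and 10.6 in shCtrl and 9.86, 10.0 and 9.70 in GMDS-AS1 KD. The ratio was lower in all 3 KD libraries, but by a small part of its size.

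TGFA (transforming growth factor alpha, ENSG00000163235), a high-affinity EGFR ligand at chr2:70447280-70554193 on the minus strand, had 33.6, 32.35 and 35.7 TPM in shCtrl and 13.5, 12.3 and 11.8 TPM in GMDS-AS1 KD. It had the largest log2 fold change of the 10 members, -1.13 (standard error 0.070), and its KD mean was 37.0% of the shCtrl mean. HBEGF (heparin-binding EGF-like growth factor, ENSG00000113070), which binds EGFR and ERBB4 and lies at chr5:140332843-140346631 on the minus strand, had 17.3, 16.8 and 17.6 TPM in shCtrl and 8.75, 7.61 and 7.27 TPM in GMDS-AS1 KD. The 3 KD libraries of both ligands lay below the 3 shCtrl libraries, and the log2 fold change of HBEGF was -0.81 (standard error 0.078).

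BTC (betacellulin, ENSG00000174808), a ligand of EGFR and ERBB4 at chr4:74744759-74794686 on the minus strand, was the least expressed member. It had 2.95, 1.81 and 2.52 TPM in shCtrl and 1.19, 1.34 and 1.37 TPM in GMDS-AS1 KD. The shCtrl libraries scattered widely, with a coefficient of variation of 24.0%, and shCtrl library 2 lay nearest to the KD libraries. The log2 fold change was -0.41 (standard error 0.14), and its size rose to -0.59 with a pseudocount of 0.1 in place of 1.

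The summed TPM of the 5 ligands was 2470, 2439 and 2459 in shCtrl and 1055, 1025 and 1012 in GMDS-AS1 KD. Nearly all of it was AREG, with 89.3% to 89.7% in shCtrl and 88.8% to 89.0% in GMDS-AS1 KD. AREG thus kept nearly its whole share of a lower total, although the 3 KD libraries lay just below the shCtrl libraries. EREG held 8.22% to 8.42% of the sum in shCtrl and 8.89% to 9.16% in GMDS-AS1 KD, while TGFA went from between 1.33% and 1.45% to between 1.16% and 1.28%.

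EGFR (ENSG00000146648, chr7:55019021-55211628, plus strand), the receptor of all 5 ligands, had 24.0, 23.0 and 24.0 TPM in shCtrl and 11.2, 11.2 and 12.1 TPM in GMDS-AS1 KD. Its KD mean was 48.6% of the shCtrl mean, the lowest share of the 3 receptors, and its log2 fold change was -0.75 (standard error 0.052). The antisense gene EGFR-AS1 within EGFR had 0.38 to 0.50 TPM in shCtrl and 0.02 to 0.11 TPM in GMDS-AS1 KD and was too low to be tested.

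ERBB3 (ENSG00000065361, chr12:56076799-56103505, plus strand), a neuregulin receptor, had 14.7, 15.7 and 16.9 TPM in shCtrl and 8.78, 10.55 and 9.58 TPM in GMDS-AS1 KD. No library crossed between the groups, and the log2 fold change was -0.43 (standard error 0.090). ERBB2 (ENSG00000141736, chr17:39687914-39730426, plus strand) had 28.1, 28.2 and 27.8 TPM in shCtrl and 17.9, 22.8 and 19.8 TPM in GMDS-AS1 KD. The 3 shCtrl libraries of ERBB2 agreed within a standard deviation of 0.232 TPM, whereas the KD libraries spread by 2.46 TPM, and its log2 fold change was -0.22 (standard error 0.088), or -0.14 without KD library 1 and -0.46 as deposited. ERBB2 overlaps MIEN1 and PGAP3 on the other strand, and the strand setting of the counting was not given in the sources used here, so reads from the overlaps cannot be told apart. MIEN1 rose from 31.2, 31.3 and 32.9 TPM to 43.8, 46.6 and 44.5 TPM (log2 fold change 0.73, standard error 0.05, adjusted p = 2.99e-05, limma), while PGAP3 fell from 6.51, 6.64 and 6.25 TPM to 3.73, 3.05 and 3.83 TPM (log2 fold change -0.52, adjusted p = 0.0028, limma).

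The receptors differed from each other within each library. EGFR held 35.9%, 34.4% and 34.9% of the summed TPM of the 3 receptors in shCtrl and 29.5%, 25.2% and 29.1% in GMDS-AS1 KD. ERBB2 held 42.1%, 42.2% and 40.5% in shCtrl and 47.3%, 51.1% and 47.8% in GMDS-AS1 KD. Neither share overlapped between the groups, and EGFR over ERBB2 went from 0.814 to 0.862 in shCtrl to 0.493 to 0.623 in GMDS-AS1 KD. The share of ERBB3 overlapped, with 22.0% to 24.6% in shCtrl and 23.1% to 23.7% in GMDS-AS1 KD. The sum of the ligands was 35.8 to 37.0 times the sum of the receptors in shCtrl and 23.0 to 27.9 times in GMDS-AS1 KD. These shares use the comparison that chose the members and are a description.

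**Figure D3:**
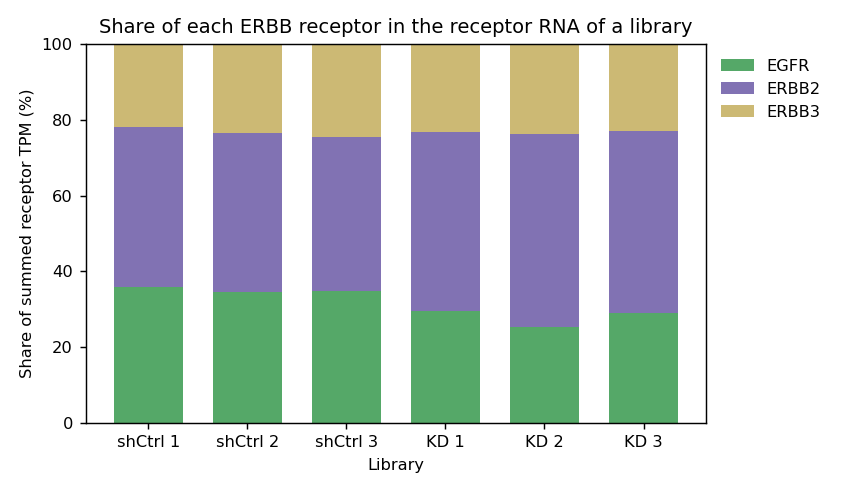
Share of EGFR, ERBB2 and ERBB3 in the summed TPM of the 3 receptors (%, stacked bars) in each library. EGFR held 34.4% to 35.9% in the shCtrl libraries and 25.2% to 29.5% in the KD libraries, and ERBB2 was the largest part in all 6.

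ADAM17 (ENSG00000151694, chr2:9488486-9556732, minus strand), the main sheddase of AREG, EREG, TGFA and HBEGF, had 32.7, 32.9 and 31.2 TPM in shCtrl and 22.4, 20.8 and 21.6 TPM in GMDS-AS1 KD. Its KD mean was 67.0% of the shCtrl mean and the log2 fold change was -0.32 (standard error 0.043). IAH1, which overlaps the end of ADAM17 on the other strand, moved by the same log2 fold change of -0.32 (adjusted p = 0.0187, limma), from 17.1 to 18.5 TPM in shCtrl to between 10.2 and 13.2 TPM in GMDS-AS1 KD.

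ADAM10 (ENSG00000137845, chr15:58588807-58749978, minus strand), the main sheddase of EGF and BTC, had 80.9, 79.0 and 77.8 TPM in shCtrl and 63.8, 61.95 and 74.3 TPM in GMDS-AS1 KD. All 3 KD libraries were below shCtrl as deposited, with KD library 3 the nearest to shCtrl. After scaling the log2 fold change was -0.01 (standard error 0.062), and it ranged from -0.25 to 0.04 over 13 alternatives. ADAM17 over ADAM10, a ratio free of scaling, was 0.404, 0.417 and 0.401 in shCtrl and 0.352, 0.336 and 0.291 in GMDS-AS1 KD.

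**Figure D4:**
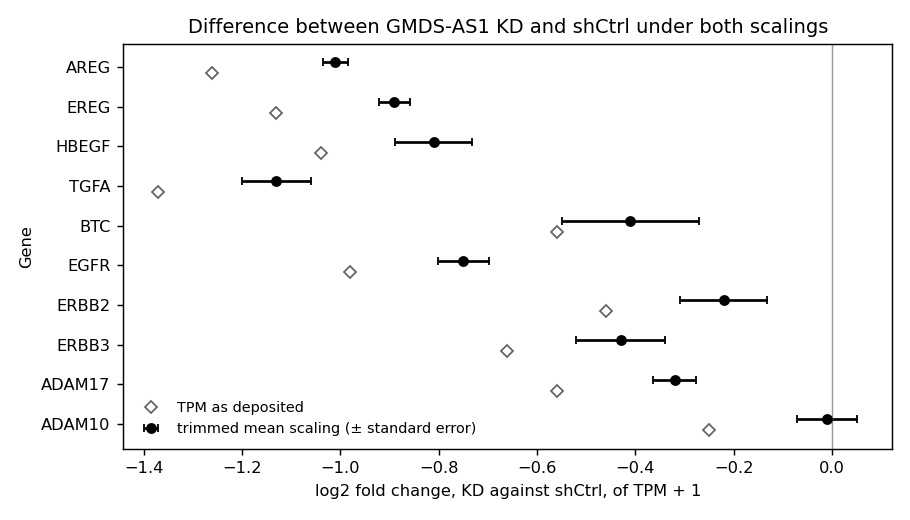
Log2 fold change of TPM + 1 in GMDS-AS1 KD against shCtrl for each member, with trimmed mean scaling (filled circles, bars of 1 standard error) and for TPM as deposited (open diamonds). The ligands other than BTC lie between -1.13 and -0.81 with scaling, and ADAM10 moves from -0.25 as deposited to -0.01.

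By role, the median log2 fold change was -0.89 for the 5 ligands, -0.43 for the 3 receptors and -0.16 for the 2 sheddases, against -0.00 for all genes tested. As deposited, these medians were -1.13, -0.66 and -0.40, against -0.20. The same comparison chose the members, so the medians are a description. As TPM, the order in shCtrl was AREG, EREG, ADAM10, then TGFA and ADAM17, then ERBB2, EGFR, HBEGF, ERBB3 and BTC. TGFA and ADAM17 changed places in shCtrl library 2, and the ranges of HBEGF and ERBB3 overlapped. In GMDS-AS1 KD, AREG, EREG and ADAM10 still led and BTC was still last. TGFA was below ERBB2 in all 3 KD libraries and overlapped with EGFR, ADAM17 overlapped with ERBB2, and ERBB3 was above HBEGF in all 3.

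The genes whose levels over the 6 libraries ran most like AREG and ERBB2 were sought among 9647 protein-coding genes of at least 5 TPM, by the root mean square difference of log2(TPM + 1) centred on each gene's mean. The closest to AREG were ERRFI1 (0.0173), CRTAP (0.0232) and RNF215 (0.0238), and the closest to ERBB2 were MOCS2 (0.0347), SEC62 (0.0390) and ANGEL1 (0.0437). ERRFI1 (MIG6), an inhibitor that binds the EGFR kinase domain, had 772, 788 and 776 TPM in shCtrl and 337, 319 and 317 TPM in GMDS-AS1 KD. Its KD mean was 41.6% of the shCtrl mean, beside 41.7% for AREG, and its log2 fold change was -1.01 (standard error 0.029). Since these genes were matched to members over the same 6 libraries, their difference between the groups was fixed by the choice and is not a result of a test.

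The rest of the pathway was followed in 50 other genes: 6 ligands, 1 receptor, 9 sheddases and sheddase regulators, 19 adaptors and proximal effectors, and 15 attenuators of the receptors. Of these, 44 were expressed enough to be tested, 15 fell, 9 rose and 20 were not past an adjusted p of 0.05 (limma, adjusted over all 16901 genes), beside 25.9% of all genes tested that fell and 28.5% that rose. Their median log2 fold change was -0.17, and 5 fell and none rose by at least 2-fold, beside 4.24% and 2.93% of all genes tested. The lists were written with earlier results of these data known, and nothing particular to them is read from the counts. These counts leaned on the scaling, since 27 fell and 2 rose as deposited.

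The 6 other ligands were at or near the floor of expression. EGF, EPGN and NRG1 did not exceed 0.71 TPM, NRG3 was listed at 0 in every library, and the neuregulins NRG2 and NRG4 had 0.69 to 1.87 TPM and 0.79 to 1.38 TPM with overlapping groups (log2 fold changes -0.12 and -0.03, adjusted p = 0.652 and 0.875, limma). ERBB4, the fourth receptor, did not exceed 0.05 TPM. The cells had EGFR, ERBB2 and ERBB3 RNA and mainly AREG and EREG as ligand RNA in both groups.

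Of the 8 sheddases and sheddase regulators tested, 6 fell and 1 rose, beside 25.9% and 28.5% of all genes tested, with a median log2 fold change of -0.42. ADAM9, a metalloprotease that can shed HBEGF, was the most abundant and had the largest change on the log2(TPM + 1) scale, with 110.0, 105 and 103 TPM in shCtrl and 23.5, 23.4 and 24.2 TPM in GMDS-AS1 KD (log2 fold change -1.88, standard error 0.035, adjusted p = 2.4e-07, limma). The KD libraries were at 22.3% of the shCtrl mean, beside 67.0% for ADAM17 and 84.1% for ADAM10. TIMP3, a secreted inhibitor of ADAM17 and ADAM10, fell from 2.75, 3.02 and 2.84 TPM to 0.73, 0.54 and 0.58 TPM, to 21.5% of the shCtrl mean (log2 fold change -1.12, adjusted p = 0.000129, limma). The other 4 that fell, named here after their values were seen, were RHBDF1 and RHBDF2, the iRhoms that carry ADAM17 to the surface, FRMD8, which stabilises the iRhoms, and the metalloprotease ADAM19, with log2 fold changes of -0.29, -0.21, -0.54 and -0.90. ADAM15 was the 1 that rose (log2 fold change 0.34), although its TPM overlapped between the groups and its adjusted p was 0.116 as deposited.

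Of the 19 adaptors and proximal effectors, 4 fell and 5 rose, shares close to the 25.9% and 28.5% of all genes tested, and the median log2 fold change was -0.13. NRAS, a small GTPase downstream of the receptors, fell from 28.98, 27.6 and 26.9 TPM to 10.7, 10.7 and 11.6 TPM (log2 fold change -1.03, standard error 0.052, adjusted p = 8.1e-06, limma). PIK3R1, the regulatory p85 alpha subunit of PI3 kinase, fell from 3.49, 2.65 and 3.32 TPM to 1.69, 0.94 and 1.25 TPM (log2 fold change -0.70, adjusted p = 0.00794, limma). SHC1, the most abundant adaptor, had 109, 111 and 106 TPM in shCtrl and 71.97, 77.5 and 90.4 TPM in GMDS-AS1 KD and was not past the threshold (log2 fold change -0.20, adjusted p = 0.0564, limma), but was past it in 4 of the 13 alternatives: as deposited (-0.45, adjusted p = 0.00266), with upper-quartile scaling (-0.29, adjusted p = 0.015), with a filter of 1 TPM (-0.22, adjusted p = 0.0411) and without KD library 3 (-0.28, adjusted p = 0.00426). The 5 that rose, also named after their values were seen, were GRB2, CRK, CRKL, SRC and HRAS, with log2 fold changes of 0.16 to 0.36. As deposited, CRKL alone of these was still higher, while GRB2 was lower (-0.08 on the log2 scale, adjusted p = 0.0448, limma).

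Of the 15 attenuators, 5 fell and 3 rose, beside 25.9% and 28.5% of all genes tested, with a median log2 fold change of -0.10. CBL, the ubiquitin ligase that marks activated EGFR for degradation, fell from 16.4, 17.3 and 17.4 TPM to 5.18, 5.31 and 5.46 TPM (log2 fold change -1.29, standard error 0.061, adjusted p = 6.34e-06, limma), the largest change on this list. CBL and ERRFI1 were the only attenuators that fell by at least 2-fold. The 3 others that fell were CBLC, RNF41, a ubiquitin ligase of ERBB3, and STAM2, with log2 fold changes of -0.88, -0.37 and -0.51. SOCS5, HGS and STAM rose, with log2 fold changes of 0.76, 0.63 and 0.46. As deposited, only SOCS5 of these had an adjusted p under 0.05 (0.000961, limma). HGS overlapped between the groups, with 134.38, 117.89 and 117.57 TPM in shCtrl and 151.56, 132.56 and 208.72 TPM in GMDS-AS1 KD.

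**Figure D5:**
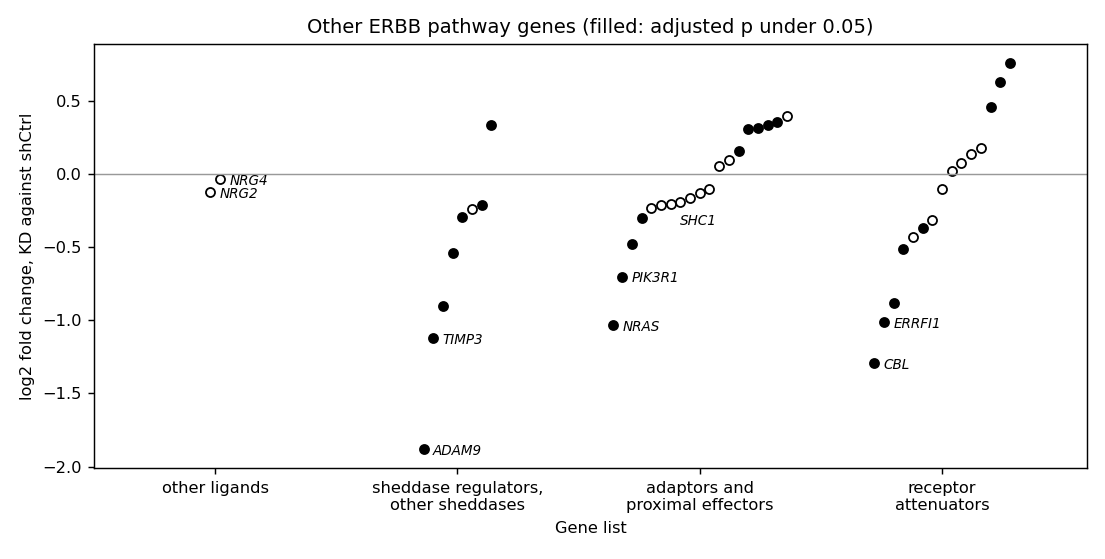
Log2 fold change in GMDS-AS1 KD against shCtrl, with trimmed mean scaling, for the 44 tested genes of the ERBB pathway outside the 10 members, 1 point a gene, sorted within each list; filled points have an adjusted p under 0.05 (limma). ADAM9 at -1.88, CBL at -1.29, TIMP3 at -1.12, NRAS at -1.03 and ERRFI1 at -1.01 are the 5 that fell by at least 2-fold.

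Other genes around the AREG and EREG locus were examined in the same libraries. EPGN, 49835 bases before EREG, had 0.06 to 0.71 TPM and was not tested. The antisense gene ENSG00000249942, in the 289749 bases between AREG and BTC, fell from 5.91, 5.67 and 5.73 TPM to 2.16, 2.54 and 3.38 TPM (log2 fold change -0.69, adjusted p = 0.00386, limma). Outside the ligands, PARM1 on the BTC side fell from 11.4, 10.6 and 10.1 TPM to 4.5, 4.72 and 4.47 TPM (log2 fold change -0.86, adjusted p = 8.38e-05, limma), while MTHFD2L on the EPGN side had 6.77, 6.71 and 9.15 TPM in shCtrl and 7.95, 7.46 and 8.01 TPM in GMDS-AS1 KD (log2 fold change 0.27, adjusted p = 0.101, limma).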

How the data were processed

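Libraries were prepared from poly-A selected RNA with an Illumina TruSeq kit and sequenced in pairs of reads on an Illumina NovaSeq instrument. The authors deposited TPM per Ensembl gene for each library, their methods name Cufflinks and RSEM, and the submitters' processing notes name Trimmomatic 0.27, TopHat2 2.1.1 and GRCh38.p13. Annotation release and strand setting were not given in the sources used here. TPM keeps no read total, so depth is unknown and no counting error was computed. The authors named DESeq2 for their comparison, which needs counts.

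Values were read for 60662 genes, and 2 broken lines were left out. Of the identifiers, 58394 were found in GENCODE 29, which gave positions and 3' UTRs (1 transcript a gene). Genes with at least 0.5 TPM in 3 libraries (16901) entered a trimmed-mean (TMM) scaling of TPM (30% of log ratios and 5% of means trimmed, unweighted), after which log2(TPM + 1) was compared by two-sided limma tests (limma 3.58.1, R 4.3.3, variance trend, no replicate block) with Benjamini-Hochberg adjustment over all genes. This put the KD scale factors at -0.25 on the log2 scale against shCtrl. The fit was run on simulated data with few changed genes, as many higher as lower. That setting does not test the scaling where as many genes differ as in these libraries. An exact permutation test of 3 against 3 libraries cannot go below p = 0.1 and was not used. Alternatives covered the scaling, pseudocount, filter, variance trend, replicate block and leaving out each library. The members and lists were chosen with earlier results of these data known. Named pathway genes were those with at least a 2-fold change past the threshold, and in each list the most abundant tested gene and the 2 with the largest changes, beside neighboring and overlapping genes and genes with a like pattern. Same-numbered libraries of the groups did not deviate together.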

Additional observations from a re-analysis of the deposited data

How the results depend on the processing

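The direction of 9 of the 10 members' log2 fold changes held in each of the 13 alternatives, and that of ADAM10 held in 10. Taking TPM as deposited changed these counts: 6814 genes were lower and 2756 higher in place of 4373 and 4810, 27 other pathway genes were lower and 2 higher in place of 15 and 9, and at least 2-fold falls went from 717 to 1177 genes and rises from 495 to 225. With upper-quartile scaling, 5198 genes were lower and 3974 higher, so the larger count was on the lower side. In that setting 9 members were lower, and 21 other pathway genes were lower and 8 higher. With a pseudocount of 0.1, 1468 genes fell and 741 rose by at least 2-fold. Leaving out 1 library at a time gave 3658 to 3977 genes lower and 4163 to 4425 higher, 7 to 8 members lower, and 13 to 16 other pathway genes lower and 9 to 10 higher. Members lower by at least 2-fold numbered 4 as deposited and 1 without the filter or without KD library 3, in place of 2.

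The log2 fold change of GMDS-AS1 was -0.39 without the filter (adjusted p = 0.149) and -0.52 to -0.30 with 1 library left out (adjusted p = 0.0289 to 0.117), and its adjusted p ranged from 0.0147 to 0.149 over all alternatives. The low neuregulins changed sign with 1 library left out: NRG2 ranged from -0.33 to 0.04, with 0.04 without shCtrl library 1, and NRG4 from -0.17 to 0.03, with 0.01, 0.03 and 0.03 without shCtrl library 1, shCtrl library 3 or KD library 1. A replicate block gave 7 members lower, 4095 genes lower and 4535 higher, and moved GMDS-AS1 to an adjusted p of 0.0518 (log2 fold change -0.41). Deviations of same-numbered libraries correlated at 0.0290, -0.0376 and 0.0142. The labels do not say whether same-numbered libraries were handled together. The unknown depth limits what can be said of genes near 1 TPM, BTC, NRG2, NRG4 and GMDS-AS1 among them.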
